A study of Mus musculus with 6 samples.

Results

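The genes described here are 10 transcription factors and cofactors of the pluripotent state, *Pou5f1*, *Sox2*, *Nanog*, *Zfp42*, *Klf4*, *Klf2*, *Esrrb*, *Tbx3*, *Tfcp2l1* and *Utf1*. Their rows were taken by gene symbol, as those of the core, naive and primed factors of mouse embryonic stem cells (mESCs), and all 10 were present among the 15266 genes listed. mRNA-seq had been performed on embryoid bodies (EBs) at day 4 (D4), grown in serum without LIF, from a pair of mESC lines edited by CRISPR-Cas9 at the *Evx1*/*Evx1as* locus. *Evx1* encodes a homeodomain protein of the posterior primitive streak, and *Evx1as* is a long non-coding RNA from the opposite strand. The comparison of the lines asks whether *Evx1as* does anything that does not depend on EVX1.

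The EVX1-Δfs line (clone 14, n = 3) carried small frameshift deletions in both *Evx1* alleles, with *Evx1as* left in place. The Del#3 line (n = 3) carried the Δ2.6kb deletion, named for its size in kb, which took away the promoters that *Evx1* and *Evx1as* use. Both lines came from W9.5 mESCs, so all 6 libraries shared the loss of functional EVX1, the serum medium and the length of differentiation. EVX1-Δfs was a single clone, and its 3 replicates were separate differentiations. No unedited and no undifferentiated sample was analysed here, so the values give what was present at D4 and not how much had been lost since the mESC state.

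POU5F1 (OCT4) and SOX2 bind DNA together at many enhancers, and with NANOG they form the core of the pluripotency network. In mESCs held in LIF, this core is joined by naive factors (*Zfp42*, *Klf4*, *Klf2*, *Esrrb*, *Tbx3* and *Tfcp2l1*), several of which respond to LIF and STAT3. When LIF is withdrawn the naive factors decline first, while *Pou5f1*, *Sox2* and *Utf1* persist into the primed epiblast, and *Nanog* and *Pou5f1* are also expressed in the posterior epiblast and primitive streak at gastrulation.

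Recovered reads on the listed genes ranged from 9024579 to 15699124 per library. The Del#3 label was borne out at the edited locus, where reads on *Evx1* numbered 28 to 48 per Del#3 library against 2582 to 4023 per EVX1-Δfs library. Counts per gene cannot show the frameshift of EVX1-Δfs. Day 4 EBs hold several cell types, and fewer cells of a type cannot be told apart from less RNA per cell. Markers of the primitive streak were abundant as a sum in both lines, with summed normalized counts of 8304 to 10449 in EVX1-Δfs and 7077 to 10571 in Del#3. In that list *Msgn1*, at 23.1 to 41.4, and *Tbx6*, at 37.8 to 71.6, were low in every library. Early neural markers (*Sox1*, *Pax6*, *Pax3*, *Hes5*) had at most 10.6 normalized counts in EVX1-Δfs and 10.7 in Del#3, whereas *Nes*, at 1460 to 2275, and *Ncam1*, at 77.8 to 165, of the same list were expressed in every library. Normalized counts, used throughout for comparing libraries, are reads divided by 1 size factor per library. Levels are compared between genes only as TPM, in which reads are also divided by exon length before scaling to the library.

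Matches to the binding letters of the members' own proteins were looked for in the 250 bases before the start sites of the members. RefSeq promoters (build GRCm38.p6) were at hand for 9 of the 10, and *Tbx3* had no entry. The letters TTTGCAT, read on both strands, are a part of the octamer and are called the octamer match here. They occurred upstream of *Sox2*, *Nanog* and *Zfp42*, that is in 3 of 9 members. By promoter this was 4 of the members' 12, against 4.12% of all 32851. These 3 are shown because an octamer match is what they share, with the octamer match and, in *Nanog*, the SOX match in capitals.
*Nanog* promoter, first start site, chr6:122707239-122707488, plus strand: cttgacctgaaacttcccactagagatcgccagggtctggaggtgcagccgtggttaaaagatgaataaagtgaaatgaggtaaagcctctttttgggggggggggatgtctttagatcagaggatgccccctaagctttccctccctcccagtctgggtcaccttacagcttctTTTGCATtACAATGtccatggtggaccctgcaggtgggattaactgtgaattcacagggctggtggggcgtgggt
*Sox2* promoter, chr3:34649745-34649994, plus strand: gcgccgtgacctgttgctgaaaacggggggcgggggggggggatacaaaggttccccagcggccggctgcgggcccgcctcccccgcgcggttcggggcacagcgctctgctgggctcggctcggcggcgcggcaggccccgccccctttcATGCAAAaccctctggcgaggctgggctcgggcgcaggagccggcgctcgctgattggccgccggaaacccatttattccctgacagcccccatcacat
*Zfp42* promoter, chr8:43307010-43307259, minus strand: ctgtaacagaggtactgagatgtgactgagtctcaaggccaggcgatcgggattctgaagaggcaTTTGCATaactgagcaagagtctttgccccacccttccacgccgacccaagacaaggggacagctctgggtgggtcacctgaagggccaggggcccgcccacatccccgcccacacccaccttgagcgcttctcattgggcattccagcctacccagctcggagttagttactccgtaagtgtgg
In *Nanog* the octamer match began 75 bases before the start site on the gene's own strand. A SOX match (CATTGT, here as ACAATG) began 67 bases before the start site, after 1 further base. The SOX letters, read on both strands, were in 10.7% of all promoters and in 3 of the members' 12. They lay upstream of 2 members, *Nanog* and *Pou5f1*, in the latter before its second start site. In *Sox2* the octamer match lay on the opposite strand, as ATGCAAA, beginning 99 bases before the start. In *Zfp42* it began 185 bases before the start. The KLF letters CCNCNCCC, on both strands, were upstream of 9 of 9 members and in 11 of their 12 promoters, but also in 45.9% of all promoters. The ESRRB letters AAGGTCA, on both strands, were upstream of 0 of 9 members and in 0 of their 12 promoters, against 4.08% of all. Matches of these motifs may overlap each other. A match describes the letters only, and no binding was measured.

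Per length, most of the members' RNA at D4 was that of *Pou5f1*. Over the 6 libraries, *Pou5f1* was at 714 ± 140.3 TPM (SD, n = 6), which placed it at rank 196 of the 14786 genes whose exon length was known. *Utf1*, a chromatin-associated cofactor of undifferentiated cells, followed at 155 ± 60.5 TPM, *Nanog* at 103 ± 29.0 and *Sox2* at 93.4 ± 24.4 (SD, n = 6 each). The naive factors spanned a wide range below them. *Tbx3* was at 73.5 ± 21.8 TPM, *Zfp42* at 40.9 ± 13.2, *Klf2* at 23.6 ± 12.8, *Klf4* at 7.56 ± 2.22, *Esrrb* at 3.13 ± 1.18 and *Tfcp2l1* at 0.702 ± 0.351 (SD, n = 6 each). The highest and lowest members thus differed 1016-fold in mean TPM. The 3 core factors made up 74.9% of the summed TPM of the members, of which *Pou5f1* alone held 58.8%, against 12.3% for the 6 naive ones.

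**Figure D1:**
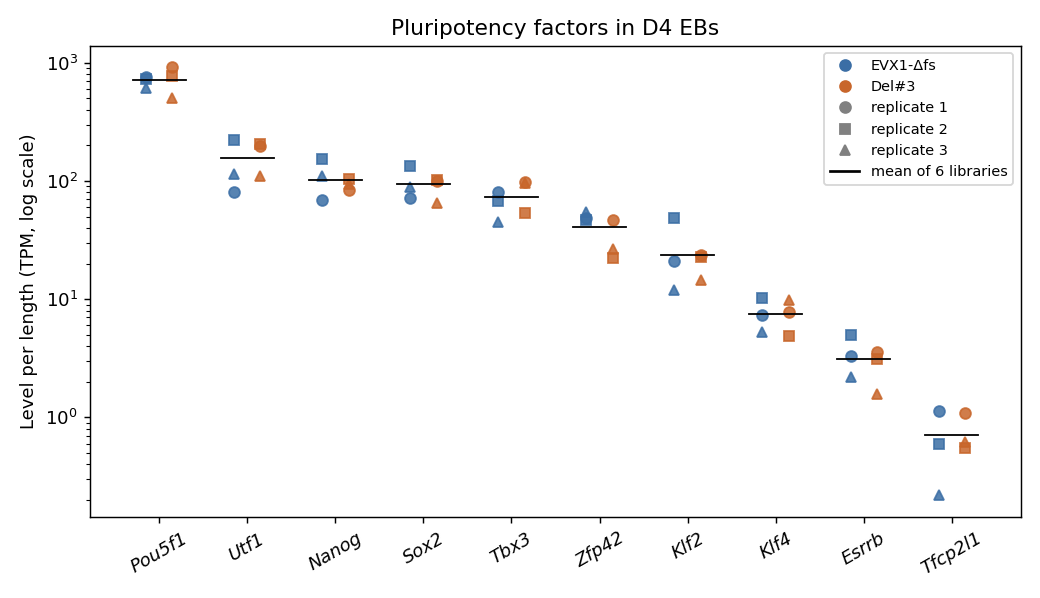
Level per length of each pluripotency factor in D4 EBs, in TPM on a log axis, with 1 point per library (blue EVX1-Δfs, orange Del#3, shape by replicate number) and the mean of 6 libraries as a line. *Pou5f1* (504 to 914 TPM) stood above every other member in every library, and *Esrrb* and *Tfcp2l1* lay lowest, at 1.58 to 4.98 and 0.219 to 1.13 TPM.

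Neighbours in that order were compared within each library by a two-sided exact sign-flip permutation test of the log ratio, in 9 comparisons. The smallest p that this test allows with 6 libraries is 0.0312. *Pou5f1* over *Utf1*, *Utf1* over *Nanog*, *Klf2* over *Klf4*, *Klf4* over *Esrrb* and *Esrrb* over *Tfcp2l1* each held in 6 of 6 libraries and reached that smallest p. With Benjamini-Hochberg adjustment over the 9 comparisons, this exact permutation p became 0.0562 for each. *Nanog* exceeded *Sox2* in 4 of 6 libraries (exact permutation p = 0.344) and *Sox2* exceeded *Tbx3* in 4 of 6 (exact permutation p = 0.219). *Tbx3* exceeded *Zfp42* in 5 of 6 (exact permutation p = 0.0625), and *Zfp42* exceeded *Klf2* in 4 of 6 (exact permutation p = 0.125). From *Nanog* to *Klf2*, neighbours thus changed places in at least 1 library. No comparison of neighbours passed 0.05 after adjustment, and libraries of both lines and with shared replicate numbers entered these tests as if independent. The order was itself set by the mean TPM of these 6 libraries, so the tests give no independent support for it.

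Between the lines, none of the 10 members passed an adjusted p-value of 0.05 by limma with Benjamini-Hochberg adjustment over the 12891 genes tested, of which 0.0155% were called. Those 2 genes were *Evx1* and *Evx1as*. Without adjustment, 1 member, *Zfp42*, had a p-value under 0.05, against 1.03% of all genes tested. With the replicate number in the model as a block, it was again 1 member, *Zfp42*, against 4.62% of all genes. edgeR's quasi-likelihood test and DESeq2's Wald test on the recovered reads called none of the members either, with or without the block. The median log2 fold change of the members, Del#3 against EVX1-Δfs, was -0.18, and that of all genes tested was 0.0022, with 7 members lower and 3 higher in Del#3. This median moved in both directions when single libraries were left out. It was 0.036 without EVX1-Δfs replicate 2 and -0.034 without Del#3 replicate 3. It was -0.30 without EVX1-Δfs replicate 1 and -0.32 without Del#3 replicate 2.

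*Zfp42* (REX1), a zinc finger protein and a widely used mark of naive cells, showed the largest difference among the members. Its gene occupies bases 44380422 to 44392363 of chromosome 8 (NCBIM37, minus strand). In the order of the replicate numbers, normalized counts were 343, 341 and 457 for EVX1-Δfs and 288, 181 and 187 for Del#3, from 520, 291, 387, 361, 156 and 175 reads. Each Del#3 library lay below each EVX1-Δfs library, with Del#3 replicate 1 nearest to the EVX1-Δfs values and replicates 2 and 3 farther below them. Of all genes tested, 1.80% were lower in every Del#3 library in this way, and 1.71% were higher in every one. The mean was 380 ± 66.5 in EVX1-Δfs and 219 ± 59.9 in Del#3 (SD, n = 3 each), or 57.4% of the EVX1-Δfs mean.

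The log2 fold change of *Zfp42* was -0.82 (SE 0.28, 95% interval -1.44 to -0.19), with an adjusted p of 1 by limma with Benjamini-Hochberg adjustment and an unadjusted limma p of 0.0156. With the replicate block the adjusted limma p was 0.787. The two-sided exact permutation test over the 6 libraries gave p = 0.1, the smallest that 3 against 3 allow. Within same-numbered pairs the log2 difference was -0.25, -0.91 and -1.29, lower in Del#3 in 3 of 3. It stayed between -1.03 and -0.68 when each library was left out, and the unadjusted limma p was above 0.05 (0.0513 to 0.0660) without EVX1-Δfs replicate 3, Del#3 replicate 2 or Del#3 replicate 3. The difference in *Zfp42* was thus larger than the spread of its replicates but did not pass the correction for the number of genes. Summed endoderm markers were also lower in every Del#3 library, although 5 of the 9 tested had a positive log2 fold change. The median log2 fold change of that list was 0.011. The sums of normalized counts were 5042 to 5331 in EVX1-Δfs and 4265 to 4997 in Del#3, with 1 of 9 tested, *Sox17*, lower in every Del#3 library, 0 of 9 called and *Afp* at no more than 5 reads in any library. Their part in the *Zfp42* result was not tested. On chromosome 15 of NCBIM37, 3 stretches of 390 to 617 aligned bases match the *Zfp42* transcript at 95.4% to 98.5% identity, so reads could be shared with copies of it.

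**Figure D2:**
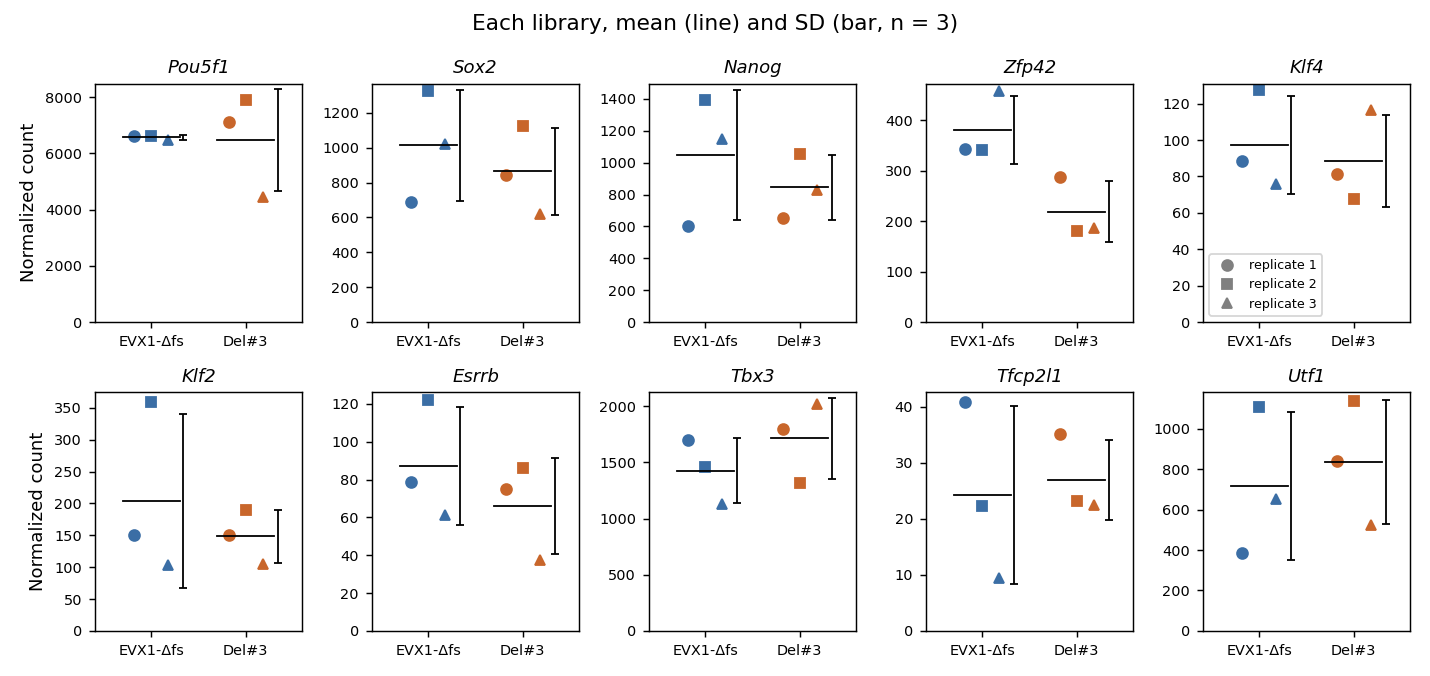
Normalized counts of each member in each library, with the mean (line) and SD (bar, n = 3) of EVX1-Δfs (blue) and Del#3 (orange) and shape by replicate number, each panel with its own axis from 0. *Zfp42* alone shows no overlap of the lines, and replicate 2 is the highest of both lines in *Sox2*, *Nanog*, *Klf2*, *Esrrb* and *Utf1*, with Del#3 replicate 3 lowest of its line in *Pou5f1*.

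Among the core factors, *Pou5f1* (chromosome 17 of NCBIM37, 35642982 to 35647721, plus strand), the POU protein on which the pluripotent state depends, had 6626, 6602 and 6464 normalized counts in the EVX1-Δfs libraries, in replicate order. The Del#3 libraries had 7104, 7890 and 4444. The EVX1-Δfs libraries were nearly level, while Del#3 held both the highest values and, in replicate 3, the lowest. The means were 6564 ± 87.5 and 6479 ± 1806 (SD, n = 3 each), and the log2 fold change was -0.061 (SE 0.26, 95% interval -0.63 to 0.51, adjusted p = 1 by limma with Benjamini-Hochberg adjustment). Without Del#3 replicate 3 it was 0.19, so its sign rested on that library.

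*Sox2* (chromosome 3, 34548927 to 34551383, plus strand), the SOX protein that partners POU5F1, had 691, 1328 and 1020 normalized counts in EVX1-Δfs and 845, 1123 and 623 in Del#3. Replicate 2 was the highest of each line, and the lines overlapped. Its log2 fold change was -0.22 (SE 0.31, 95% interval -0.90 to 0.46). It was -0.00062 without EVX1-Δfs replicate 2 and -0.0061 without Del#3 replicate 3, but -0.47 without EVX1-Δfs replicate 1 and -0.43 without Del#3 replicate 2. *Nanog* (chromosome 6, 122657507 to 122664651, plus strand), a homeodomain protein that stabilises the undifferentiated state, had 602, 1395 and 1146 normalized counts in EVX1-Δfs and 651, 1057 and 830 in Del#3. The order of the replicates was the same in both lines, with replicate 1 lowest and replicate 2 highest. Its log2 fold change was -0.25 (SE 0.33, 95% interval -0.99 to 0.48). When each library was left out it ranged from -0.61 without EVX1-Δfs replicate 1 to -0.0017 without EVX1-Δfs replicate 2.

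*Utf1* (chromosome 7, 147129688 to 147131011, plus strand), kept on in the primed epiblast, had 387, 1109 and 652 normalized counts in EVX1-Δfs and 842, 1137 and 524 in Del#3. The lines overlapped, and the pair of replicate 1 differed most, by 1.12 in log2 units. Across all pairs the log2 fold change was 0.28 (SE 0.40, 95% interval -0.60 to 1.16), and -0.097 without EVX1-Δfs replicate 1. Beside *Utf1*, the wider list of formative and primed epiblast genes (*Fgf5*, *Otx2*, *Dnmt3b* and 9 others) had 0 of 12 members called between the lines, with a median log2 fold change of 0.021. Its largest changes were those of *Sox3*, at 0.59, and *Etv4*, at -0.090.

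Of the remaining naive factors, *Esrrb* (chromosome 12, 87702067 to 87862578, plus strand), an orphan nuclear receptor and target of NANOG, had 78.5, 122 and 61.4 normalized counts in EVX1-Δfs and 74.9, 85.9 and 37.4 in Del#3. It was lower in Del#3 in 3 of 3 same-numbered pairs, yet the lines overlapped widely. Its log2 fold change was -0.42 (SE 0.41, 95% interval -1.34 to 0.49). It shrank to -0.062 once Del#3 replicate 3 was dropped and to -0.16 once EVX1-Δfs replicate 2 was dropped. Dropping any other single library made the *Esrrb* difference larger, at -0.65 to -0.47, and its sign never changed. *Klf2* (chromosome 8, 74842932 to 74845555, plus strand), a Krüppel-like factor of the naive state, had 150, 360 and 103 normalized counts in EVX1-Δfs and 150, 189 and 106 in Del#3. The lines were nearly equal in replicates 1 and 3 and differed in replicate 2. Its log2 fold change of -0.30 (SE 0.44, 95% interval -1.28 to 0.69) became 0.21 without EVX1-Δfs replicate 2.

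*Klf4* (chromosome 4, 55540013 to 55545347, minus strand), the related factor that LIF and STAT3 induce, had 88.4, 128 and 75.6 normalized counts in EVX1-Δfs and 81.3, 67.3 and 116 in Del#3. Its replicates ran in opposite order in the lines, with replicate 2 highest in EVX1-Δfs and lowest in Del#3. The log2 fold change was -0.14 (SE 0.35, 95% interval -0.91 to 0.63), and it was 0.073 without EVX1-Δfs replicate 2 and 0.035 without Del#3 replicate 2. *Tbx3* (chromosome 5, 120120678 to 120134733, plus strand), a T-box repressor that is also used in mesoderm and extraembryonic tissues, had 1697, 1457 and 1126 normalized counts in EVX1-Δfs and 1800, 1313 and 2023 in Del#3. Replicate 3 was its lowest in EVX1-Δfs and highest in Del#3, and the log2 fold change was 0.26 (SE 0.26, 95% interval -0.31 to 0.83), between 0.099 and 0.44 when each library was left out. *Tfcp2l1* (chromosome 1, 120524522 to 120581744, plus strand), a grainyhead-family factor that LIF sustains, had 62, 19 and 8 reads in EVX1-Δfs and 44, 20 and 21 in Del#3, so counting error alone is large. Its log2 fold change of 0.34 (SE 0.54, 95% interval -0.85 to 1.52) became -0.19 without EVX1-Δfs replicate 3.

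**Figure D3:**
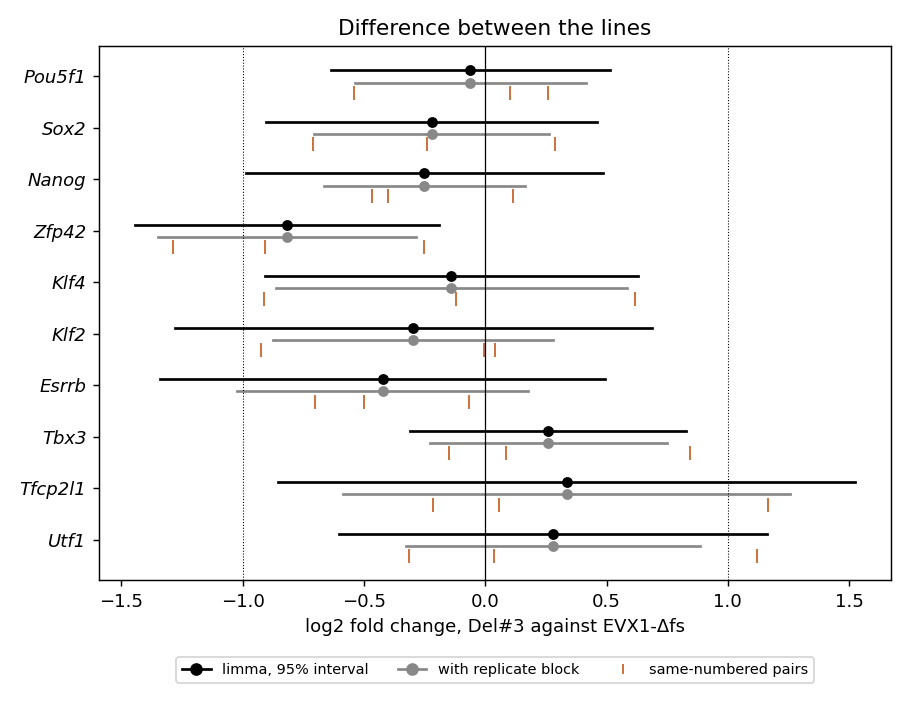
Log2 fold change of each member, Del#3 against EVX1-Δfs, with its 95% interval by limma without (black) and with (grey) the replicate number as a block. Orange ticks are the 3 same-numbered pairs and dotted lines mark a 2-fold change. The interval of *Zfp42* alone leaves out 0, and without the block those of *Zfp42*, *Klf2*, *Esrrb*, *Tfcp2l1* and *Utf1* reach past 2-fold.

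The intervals set what could be told at this depth and number of libraries. For 5 of the 10 members (*Pou5f1*, *Sox2*, *Nanog*, *Klf4* and *Tbx3*) the whole 95% interval from limma was inside a 2-fold difference up or down, against 61.1% of all genes tested. With the replicate block this held for 7 members, *Klf2* and *Utf1* being added, against 76.2% of all genes. The intervals of *Esrrb* and *Tfcp2l1* reached past that margin in both fits. So did that of *Zfp42*, which without the block was narrower than those of *Sox2*, *Nanog* and *Klf4* but centred on -0.82. The intervals of the other 9 members held 0, and that of *Zfp42*, which did not, is unadjusted for the number of genes.

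The genes around the members gave a mixed picture. In the wider naive list, 8 of the 9 genes tested were lower in Del#3, with a median log2 fold change of -0.42, and 0 of 9 were called. The largest changes were those of *Nr5a2*, a nuclear receptor that can act upstream of *Pou5f1*, at -1.02 (SE 0.57), and *Nr0b1* (DAX1), at -0.84 (SE 0.39), both with an adjusted p of 1 by limma with Benjamini-Hochberg adjustment. *Nr5a2* had only 3 to 28 reads in a library. *Nr0b1* and *Dppa3* (Stella; log2 fold change -0.74, SE 0.35, named after its values were seen) were, like *Zfp42*, lower in every Del#3 library than in every EVX1-Δfs library. *Nr0b1* had 43.6, 38.7 and 54.3 normalized counts in EVX1-Δfs and 31.1, 26.7 and 18.2 in Del#3. *Tcl1* and *Gbx2* had too few reads to be tested.

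In the core network list, 0 of 12 genes were called, 6 were lower and 6 higher in Del#3, and the median log2 fold change was 0.042. Its largest changes were those of *Rif1*, at 1.20 (SE 0.67), and *Zfp281*, at 0.90 (SE 0.55), both with wide spread between replicates. *Dppa4* and *Tdgf1*, named after their values were seen, were lower in every Del#3 library, with log2 fold changes of -0.83 (SE 0.36) and -0.37 (SE 0.23), and an adjusted p of 1 by limma for both. Genes of LIF and STAT3 signalling, which sustains *Klf4* and *Tfcp2l1* in mESCs, had 0 of 8 called and log2 fold changes from -0.12 for *Il6st* to 0.18 for *Lifr*. Next to *Lifr*, the largest increase was that of *Pim1*, at 0.15. Over these 4 lists, 0 of 41 genes tested were called, 4 were lower in every Del#3 library (*Nr0b1*, *Dppa3*, *Dppa4* and *Tdgf1*) and 0 were higher in every one, against 1.80% and 1.71% of all genes tested. The lists were drawn up with results of these data known, so nothing is read from that count.

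**Figure D4:**
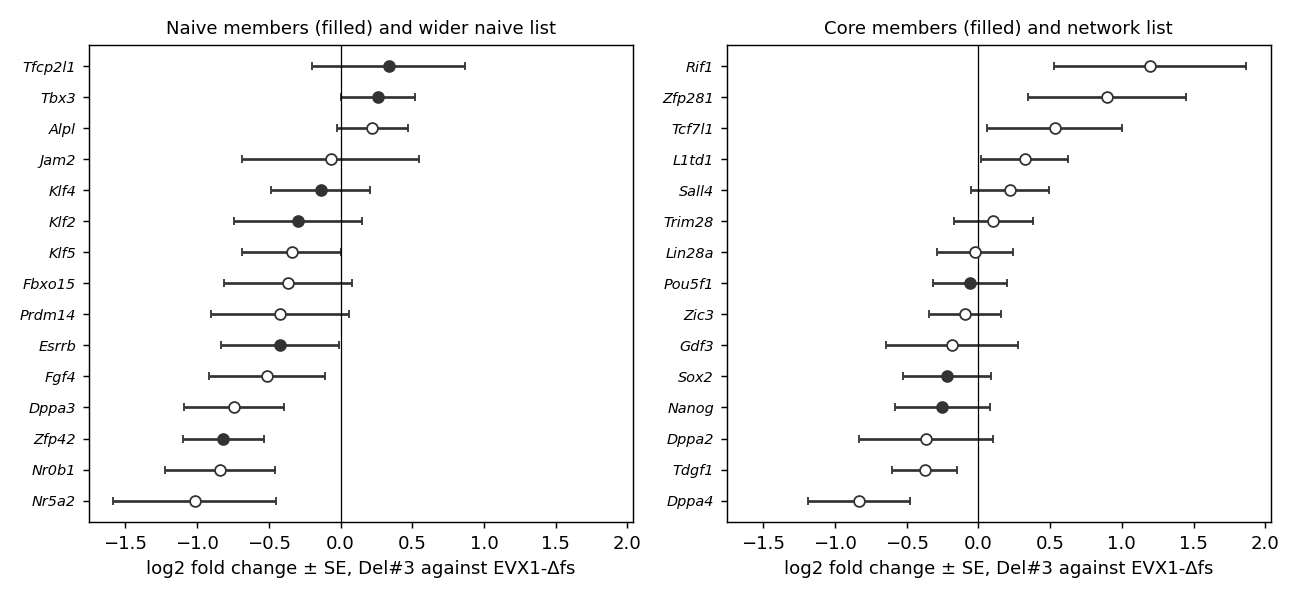
Log2 fold change ± SE by limma, Del#3 against EVX1-Δfs, of the naive members with the wider naive list (left) and of the core members with the core network list (right), members as filled points. On the left, *Zfp42* lies beside *Nr0b1*, *Nr5a2* and *Dppa3* at the low end while *Tbx3* and *Tfcp2l1* lie above 0, and on the right the 3 core members lie near the middle, between *Dppa4* at -0.83 and *Rif1* at 1.20.

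The lists of other cell types gave 0 of 36 genes called between the lines. Their largest changes were those of *Ttr* (0.72) and *Sox17* (-0.35) in endoderm, *Hand1* (0.48) and *Cdh5* (0.37) in blood vessel and lateral mesoderm, and *Col1a1* (0.36) and *Col1a2* (0.35) among fibroblast genes. They were those of *Mesp1* (-0.27) and *Mixl1* (-0.24) in the primitive streak, *Plac1* (0.28) and *Ascl2* (0.024) in trophoblast, and *Nes* (-0.13) and *Ncam1* (-0.086) among neural genes, all as log2 fold changes by limma.

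The members were split between lines and replicate numbers much as all genes were. The replicate numbers were taken to mark separate differentiations, and their share rests on 2 degrees of freedom against 1 for the line, which raises it in any gene. As a share of the sum of squares of the log2 values, a median of 63.8% lay between replicate numbers in the members and 7.60% between lines, and the medians of all genes tested were 64.4% and 6.70%. In 8 of 10 members the replicate share was the larger, against 87.3% of all genes. The exceptions were *Zfp42*, with 71.8% between lines and 8.56% between replicate numbers, and *Klf4*, where 91.5% lay in neither.

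By limma's F test of the replicate number, with the line in the model, 0 of 10 members passed an adjusted p-value of 0.05, against 4.24% of all genes tested. Without adjustment, 4 had a p-value under 0.05, against 27.7% of all genes. *Nanog* was lowest in replicate 1, with mean normalized counts of 626 in replicate 1, 1226 in replicate 2 and 988 in replicate 3, a 1.94-fold range (limma F test with Benjamini-Hochberg adjustment, adjusted p = 0.0804). *Klf2* was at 150, 275 and 104 in the same order, a 2.49-fold range (adjusted p = 0.0831 by limma). *Esrrb* was at 76.7, 104 and 49.4 (adjusted p = 0.135 by limma), and *Utf1* at 615, 1123 and 588 (adjusted p = 0.135 by limma). In these 4, and in *Sox2* at 768, 1225 and 821, replicate 2 was the highest in both lines.

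The other members did not follow that order. *Pou5f1* ranged 1.35-fold between replicate numbers, *Tbx3* and *Zfp42* each 1.26-fold and *Klf4* 1.11-fold. *Tfcp2l1*, at 38.0, 22.8 and 15.9 mean normalized counts, was highest in replicate 1 in both lines (adjusted p = 0.224 by limma). The calls depended on single libraries, in the members as in all genes. Without EVX1-Δfs replicate 3, where 18.3% of all genes tested were called, *Sox2*, *Nanog*, *Klf2* and *Utf1* passed (adjusted p = 0.0362, 0.0183, 0.0460 and 0.00522 by limma). Without Del#3 replicate 3, where 24.2% of all genes were called, *Nanog*, *Klf2*, *Tfcp2l1* and *Utf1* did (adjusted p = 0.0112, 0.00698, 0.04997 and 0.0215 by limma). *Nanog* and *Klf2* passed without Del#3 replicate 2 (11.1% of all genes called), and *Utf1* without Del#3 replicate 1 (1.62% of all genes called). In these fits the replicate number with 1 library left is assumed to vary like the others.

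**Figure D5:**
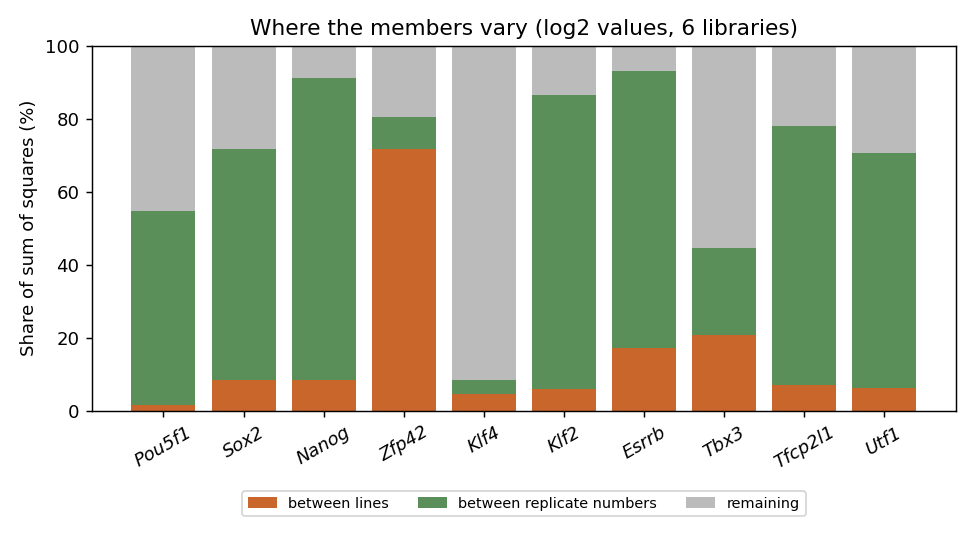
Share of the sum of squares of the log2 normalized counts over 6 libraries that lay between the lines, between the replicate numbers and in neither, for each member. The replicate number holds the largest share in 7 members, from 53.4% in *Pou5f1* to 82.9% in *Nanog*, the line does so in *Zfp42* (71.8%), and neither does in *Klf4* and *Tbx3*.

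Set against *Pou5f1* in the same library, the TPM of *Nanog* ranged from 9.14% of it in EVX1-Δfs replicate 1 and 9.22% in Del#3 replicate 1 to 21.3% in EVX1-Δfs replicate 2. *Zfp42* was at 6.49%, 6.47% and 8.87% of the *Pou5f1* level in the EVX1-Δfs libraries, and at 5.08%, 2.88% and 5.27% in those of Del#3. This ratio does not use the size factors, but it rests on the same 6 libraries in which *Zfp42* was singled out and adds no independent evidence. The summed TPM of the 6 naive factors overlapped between the lines, at 119 to 178 in EVX1-Δfs and 107 to 180 in Del#3 (exact permutation p = 0.8). *Tbx3* held the largest part of that sum, at a mean of 64.4 TPM in EVX1-Δfs and 82.6 TPM in Del#3. The other 5 summed to 88.9 ± 19.3 TPM in EVX1-Δfs and 62.9 ± 16.8 TPM in Del#3 (SD, n = 3 each), with overlapping libraries, a split made after the values were seen and therefore given with no test.

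The genes whose log2 normalized counts ran most like those of 3 members over the 6 libraries were looked up among the 9122 genes with a mean of at least 100. For *Pou5f1* they were *Kat5* (Pearson r = 0.98), *Mcm3* (0.97) and *Sema6b* (0.97). For *Nanog* they were *Nes* (0.99), *Rab27a* (0.98) and *Bcl7b* (0.98), and for *Zfp42* they were *Grpel2* (0.98), *Slc25a17* (0.96) and *Wdr36* (0.92). These describe 6 points that share lines and replicate numbers, and they were picked as the highest of all genes searched.

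Reads of some other members could also be shared with similar sequence elsewhere in NCBIM37, counting stretches of at least 300 bases with 90% identity or more. *Nanog* had 1, on chromosome X, of 1325 aligned bases at 97.4% identity, *Klf4* had 5 and *Pou5f1* had 1, of 385 bases at 100% identity on chromosome 1. *Sox2*, *Klf2*, *Esrrb*, *Tbx3*, *Tfcp2l1* and *Utf1* had none. In the annotation, exons of *Tbx3* overlap those of Gm2301 by 115 bases on the opposite strand, and exons of *Tfcp2l1* overlap a U1 entry by 130 bases on the same strand.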

How the data were processed

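The labels and the paper's methods describe poly(A)-selected RNA sequenced on an Ion Proton. The submitters' processing notes and the methods name TopHat2 and then TMAP for mapping to mm9, HTSeq at its standard settings for counting and DESeq2 for testing. The authors deposited 1 table of 15266 genes by 6 libraries, whose signal values are read counts divided by 1 size factor per library. In every library each value was a whole multiple of a single step (100% of values, tolerance 0.1), and dividing by the step gave the reads. With 9024579 to 15699124 reads on listed genes per library, intervals from limma cover the spread between libraries, and reads are not independent molecules.

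The main test was limma (version 3.58.1, R 4.3.3), with its variance trend, on values transformed as log2(normalized count + 1), over the 12891 genes past filterByExpr of edgeR (minimum count 10), with Benjamini-Hochberg adjustment and a threshold of 0.05. Fold changes are on that scale and understate changes of low genes. The replicate number was tested with limma's F test with the line in the model. TPM came from these reads with exon lengths of the GENCODE annotation of NCBIM37 (the assembly of mm9) for 14786 genes, which hold 94.9% of the reads. 530 of these genes were matched by an older symbol, and all 10 members had a length. Similar sequence was sought with BLAST+ 2.17.0, at 300 bases or more and 90% identity or more. The scripts were tested on simulated data.

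According to the design text, the lines were differentiated in parallel on 3 separate days, so same-numbered libraries were taken as pairs, although the labels do not tie each number to a day. Their deviations from the line means correlated across genes at 0.74 in replicate 1, 0.32 in replicate 2 and -0.053 in replicate 3. Some unlike-numbered libraries correlated as well or better (EVX1-Δfs replicate 3 with Del#3 replicate 2 at 0.42, EVX1-Δfs replicate 2 with Del#3 replicate 3 at 0.25), so libraries matched best with their own number in both directions for replicate 1 alone. Replicates of a line were separate differentiations of 1 line, so p-values measure the spread between those differentiations.

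Alternatives were TMM factors, scaling to total reads, pseudocounts of 0.1 and 5, no filter, at least 10 reads in every library, edgeR's quasi-likelihood test (version 4.0.16), DESeq2's Wald test (version 1.42.0), the replicate block in all 3 tools, no line term in the test of replicate numbers, and leaving out each library. The rule for named genes took the 10 members, *Evx1*, *Evx1as* and genes called between the lines, from each wider list the 2 genes with the largest change, and up to 3 with the smallest p between replicate numbers. It also took the 3 genes most like *Pou5f1*, *Nanog* and *Zfp42*. The members and lists were chosen with earlier results of these data known.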

Additional observations from a re-analysis of the deposited data

How the results depend on the processing

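No member was called between the lines under any alternative in which it was tested, and at least 10 reads in every library left *Tfcp2l1* untested. In limma the replicate block keeps each fold change, and the paired fit left the median of the members at -0.18 and changed no member's call. Genes called between the lines numbered 2 in the main analysis and 9 with the replicate block in DESeq2, and *Grb10* was added with the block in limma (adjusted p = 0.0197). Genes called between replicate numbers numbered 546, against 334 with TMM factors and 317 with total reads. Without the line term, 0 core network genes were called between replicate numbers, against 1 with it. The cause was not tested.

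Leaving out each library in turn reversed 5 members, whose log2 fold changes ranged from -0.22 to 0.19 for *Pou5f1*, -0.35 to 0.073 for *Klf4*, -0.69 to 0.21 for *Klf2*, -0.19 to 0.81 for *Tfcp2l1* and -0.097 to 0.66 for *Utf1*. *Klf4* was at 0.073 without EVX1-Δfs replicate 2 and 0.035 without Del#3 replicate 2. Between replicate numbers, such fits called 197 to 3175 genes, 0 to 4 members, 1 to 4 core network genes, 0 to 2 genes in each of the wider naive, formative and primed, primitive streak, endoderm, blood vessel and lateral mesoderm and fibroblast lists, and 0 to 1 in LIF and STAT3 signalling. They called the fewest genes without EVX1-Δfs replicate 1 (197) and Del#3 replicate 1 (211), and the most without Del#3 replicate 3 (3175).

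With 3 libraries a line, 2-fold changes of *Zfp42*, *Esrrb* and *Tfcp2l1* lie inside the limma intervals with and without the block, and those of *Klf2* and *Utf1* without it, and *Tfcp2l1* rests on 8 to 62 reads a library.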

Other observations

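Of the 41 genes tested in the 4 lists around the pluripotency factors, 1 was called between replicate numbers and 11 had an unadjusted p under 0.05 by limma's F test, against 4.24% and 27.7% of all genes tested. In the core network list, *Zfp281*, a zinc finger partner of the core factors, was the 1 gene of 12 called between replicate numbers (limma F test with Benjamini-Hochberg adjustment, adjusted p = 0.0305), and it was not called without the line term in the model (adjusted p = 0.0869 by limma) or without EVX1-Δfs replicate 1 (adjusted p = 0.117 by limma). In replicate order it had 268, 55.1 and 122 normalized counts for EVX1-Δfs and 414, 147 and 192 for Del#3, lowest in replicate 2 in both lines, where *Nanog*, *Sox2*, *Klf2*, *Esrrb* and *Utf1* were highest. *Gdf3* and *Lin28a* followed it in that list, with adjusted limma p of 0.125 and 0.168.

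Of the formative and primed list, *Pou3f1* (0.125), *Foxd3* (0.150) and *Sall2* (0.158) had the smallest adjusted limma p between replicate numbers. *Foxd3*, a forkhead factor of the epiblast and neural crest, had 85.8, 323 and 208 normalized counts in EVX1-Δfs and 189, 308 and 108 in Del#3, highest in replicate 2 of both lines. In the wider naive list they were *Jam2* (0.154), *Fgf4* (0.173) and *Fbxo15* (0.239), and *Fgf4*, an FGF ligand that POU5F1 and SOX2 activate, was also highest in replicate 2 of both lines, at 196 and 174 normalized counts. In LIF and STAT3 signalling they were *Lifr* (0.147), *Junb* (0.153) and *Il6st* (0.158).

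In the lists of other cell types, 0 of 36 genes were called between replicate numbers by limma's F test and 7 had an unadjusted p under 0.05, against 4.24% and 27.7% of all genes tested. Within endoderm the smallest adjusted limma p were those of *Foxa2* (0.0739), *Dab2* (0.0916) and *Gata4* (0.184). Within the primitive streak they were those of *Eomes* (0.110), *Mesp1* (0.153) and *Mesp2* (0.204). *Pecam1* (0.112), *Etv2* (0.135) and *Cdh5* (0.231) had the smallest in blood vessel and lateral mesoderm. The lowest in the remaining lists were *Thy1* (0.179) among fibroblast genes, *Krt7* (0.205) in trophoblast and *Nes* (0.259) among neural genes.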
